A study of Homo sapiens with 15 samples.

Results

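A set of 9 genes that detect or relay double-stranded RNA were followed in human prostate cancer cells transfected with microRNA mimics. They were chosen by name: DDX58 (current symbol RIGI), IFIH1, DHX58, TLR3, EIF2AK2, MAVS, IRF3, IRF7 and ADAR. All 9 of 9 were measured, each by 1 feature of the array, among 18377 genes. The 15 arrays, of the type Affymetrix Human Gene 1.0 ST, measured total RNA. Of these, 8 held RNA of PC3, a line from a bone metastasis of prostate cancer, and 7 RNA of DU145, another established prostate cancer line. In each line, cells had received a miR-452 mimic, a miR-224 mimic or a scrambled mimic, or had been left untransfected. The mimics were given at 20 nM with a cationic lipid, the medium was replaced at 6 h, and cells were lysed for RNA at 48 h. There were 2 arrays per group, but 1 for scrambled DU145, where the authors left out another array for bad performance. The question asked of these genes was whether the lines differ in their response to transfected double-stranded RNA. Untransfected cells received neither RNA nor, as far as the labels say, lipid, so these cannot be told apart in any comparison with untransfected cells.

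Double-stranded RNA in the cytosol is a hallmark of viral replication, and cells carry several proteins that bind it. DDX58 and IFIH1 are helicases that, once bound to such RNA, engage the mitochondrial adaptor MAVS, which leads to activation of the transcription factors IRF3 and IRF7 and of NF-kB, and so to type I and type III interferon. DHX58 is the third helicase of the family and tunes the other two. TLR3 binds double-stranded RNA in endosomes and signals through a different adaptor. EIF2AK2 (PKR) is a kinase that double-stranded RNA activates to phosphorylate the initiation factor eIF2 alpha and stop translation, and ADAR edits adenosine to inosine in double-stranded RNA, which limits activation of the sensors. Transcription of several of these genes is itself raised by interferon, through an element with a GAAANNGAAA core in their promoters. A microRNA mimic is a short synthetic RNA duplex.

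The sequences of the mimics themselves, the scrambled mimic included, are not shown. Shown instead are the mature microRNAs that the 2 named mimics stand for, as the transfected sequence differed between treated groups. They are the 5p products in RefSeq (GRCh38.p14), the arm not being given in the labels, with the seed (bases 2 to 8) in capitals. Both lie on the minus strand of the X chromosome, at chrX:151958628-151958652 for miR-224 and chrX:151959678-151959699 for miR-452. They share no seed.
hsa-miR-452-5p: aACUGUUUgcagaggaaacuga
hsa-miR-224-5p: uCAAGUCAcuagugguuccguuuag

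Promoter stretches of 4 sensor genes are shown because they hold the letters of the interferon-responsive core or a variant of it. RefSeq promoter windows (GRCh38.p14, 250 bases before to 50 after the start of the gene) were held for 6 of the 9 genes, and the letters GAAANNGAAA were searched on both strands. They occurred 3 times in the IFIH1 window, where 2 of the 3 overlap, and once each in the TLR3 and EIF2AK2 windows. They occurred in none of the windows of DDX58, MAVS and ADAR, while 1255 of all 35116 promoter windows (3.57%) held them. A variant with 1 base less between the repeats, GAAANGAAA, occurred once in the DDX58 window. It was searched after that sequence had been looked at, and 1097 of all windows (3.12%) held it. In the stretches below capitals mark these letters or their complement read on the other strand. They lie at chr2:162318685-162318863 (minus strand) for IFIH1, chr9:32526371-32526419 (minus strand) for DDX58, chr2:37156977-37157006 (minus strand) for EIF2AK2 and chr4:186069132-186069161 (plus strand) for TLR3. A match of letters is a description and not a site of binding.
IFIH1: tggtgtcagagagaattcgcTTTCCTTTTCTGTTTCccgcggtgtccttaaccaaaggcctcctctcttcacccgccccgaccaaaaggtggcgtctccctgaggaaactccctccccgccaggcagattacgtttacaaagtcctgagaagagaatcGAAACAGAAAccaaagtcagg
DDX58: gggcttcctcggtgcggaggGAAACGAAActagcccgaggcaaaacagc
EIF2AK2: gggaaggcggagtccaagggGAAAACGAAA
TLR3: cattttttttcaagctttacTTTCACTTTC

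Values are log2 levels that the authors normalized separately in each line, so levels are not tested between lines, and levels of different genes are not compared. The interquartile range of all values within an array was 2.43 to 2.60 on the transfected PC3 arrays and 2.68 to 2.75 on the untransfected PC3 arrays. In DU145 it was 2.03 to 2.20 on the transfected arrays and 2.41 to 2.43 on the untransfected arrays. The spread of an array therefore moved with transfection. Its part in the results was not tested beyond quantile normalization within the line, which is named below where it ends a call. Of 5 epithelial markers, the keratins KRT8, KRT18 and KRT19 had medians of 10.81 to 11.33 in PC3 and 10.26 to 12.07 in DU145. EPCAM had a median of 7.75 in PC3 and 8.71 in DU145, and the cadherin CDH1 7.01 in PC3 and 8.76 in DU145. Of 5 leukocyte markers, PTPRC did not exceed 5.31 on any array, while CD14 had a median of 6.42 in both lines and CSF1R 6.66 in PC3 and 5.95 in DU145. Of 4 fibroblast markers, COL1A1 was the highest, with a median of 8.44 in PC3 and 7.29 in DU145, and DCN did not exceed 5.15. The plasmacytoid dendritic cell genes IL3RA and CLEC4C did not exceed 5.39. The mean of the 5 epithelial markers also moved with treatment, 10.00 to 10.02 with miR-452, 9.33 to 9.39 with miR-224 and 9.44 to 9.56 with the scrambled mimic, against 9.64 to 9.66 in untransfected PC3 cells. In DU145 it was 10.04 to 10.22 with miR-452, 9.79 to 9.85 with miR-224 and 10.27 on the scrambled array, against 10.34 to 10.35 in untransfected cells. The part of these marker levels in the results was not tested. The number of arrays limits the precision. Whether replicate arrays came from separate cultures is not given, so the p-values reflect only the spread among arrays, which may be technical. In bulk RNA, fewer expressing cells and less RNA per cell cannot be told apart.

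The sensor genes called against untransfected cells were not the same in the lines, which by itself is not a test between the lines. That test is given further below. With miR-452 DDX58 rose in PC3 and fell in DU145. In PC3 cells given the miR-452 mimic, IFIH1, DDX58, TLR3 and IRF7 rose and ADAR fell, 5 of 9 genes called at a limma adjusted p under 0.05 over all genes. This stands beside 22.2% of all genes called, 8.12% higher and 14.1% lower. In DU145 cells given the same mimic, DDX58, EIF2AK2 and ADAR fell and none rose, 3 of 9 beside 28.2% of all genes (8.31% higher, 19.9% lower). With miR-224, ADAR alone fell in PC3 (1 of 9, beside 9.69% of all genes, 2.84% higher and 6.85% lower), and ADAR, DDX58, EIF2AK2 and IFIH1 fell in DU145 (4 of 9, beside 21% of all genes, 5.44% higher and 15.5% lower). With the scrambled mimic, ADAR alone fell in PC3 (1 of 9, beside 14.2% of all genes, 3.32% higher and 10.9% lower), and DDX58, EIF2AK2 and ADAR fell in DU145 (3 of 9, beside 11.8% of all genes, 2.6% higher and 9.22% lower, from 1 scrambled array). The DU145 count with miR-452 and the PC3 counts with miR-224 and the scrambled mimic are near the shares of all genes. The median change of the 9 genes with miR-452 was 0.17 in PC3, against 0.01 for all genes, and -0.15 in DU145, against -0.02 for all genes.

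**Figure D1:**
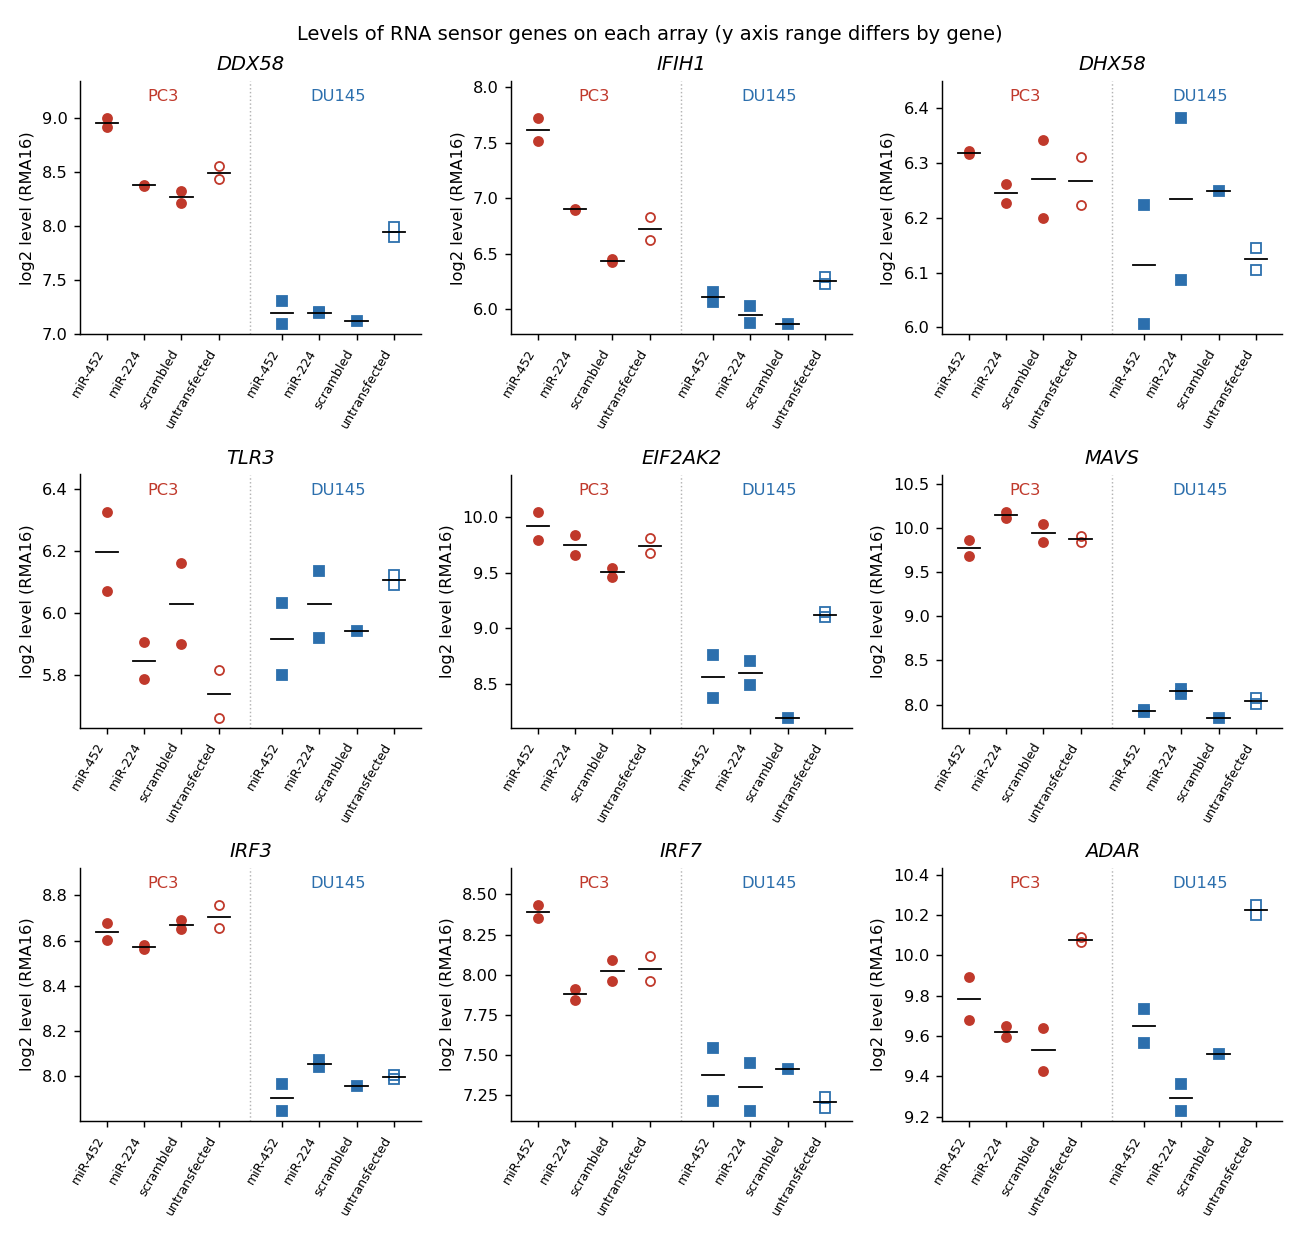
Each panel plots the log2 level of 1 gene on every array (y axis, range differs by gene), PC3 as circles and DU145 as squares, open for untransfected cells, with a bar at the group mean. DDX58 lay at 8.92 and 8.99 on the PC3 miR-452 arrays, above all other PC3 arrays, while all transfected DU145 arrays lay at 7.09 to 7.30, below the untransfected DU145 arrays.

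DDX58, the RIG-I helicase (chr9:32455302-32526196), went opposite ways in the lines with miR-452, while with miR-224 and the scrambled mimic all arrays of both lines lay below the untransfected arrays. In PC3 its level was 8.99 and 8.92 with miR-452, 8.38 and 8.37 with miR-224 and 8.32 and 8.21 with the scrambled mimic, against 8.55 and 8.43 in untransfected cells. In DU145 it was 7.09 and 7.30 with miR-452, 7.20 and 7.19 with miR-224 and 7.12 on the scrambled array, against 7.99 and 7.89 in untransfected cells. The PC3 miR-452 arrays were thus above every other PC3 array, and every transfected DU145 array was below both untransfected DU145 arrays. With miR-452 it rose in PC3 by 0.46 ± 0.08 (log2 change ± standard error, 1.38-fold, limma adjusted p = 0.00345) and fell in DU145 by 0.74 ± 0.10 (1.68-fold, adjusted p = 0.00209). With miR-224 it fell in DU145 by 0.74 ± 0.10 (adjusted p = 0.00192), and its change of -0.12 ± 0.08 in PC3 was not called (adjusted p = 0.425). With the scrambled mimic it fell in DU145 by 0.82 ± 0.12 (adjusted p = 0.013), a call that ended without either untransfected array (adjusted p 0.0725 and 0.0816), and its change of -0.23 ± 0.08 in PC3 was not called (adjusted p = 0.0828).

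IFIH1, the MDA5 helicase (chr2:162267074-162318684), had the largest change of the 9 genes in PC3 with miR-452. Its level in PC3 was 7.52 and 7.72 with miR-452, 6.91 and 6.90 with miR-224 and 6.45 and 6.42 with the scrambled mimic, against 6.83 and 6.63 in untransfected cells. Its DU145 level was 6.16 and 6.07 with miR-452, 5.88 and 6.03 with miR-224 and 5.87 on the scrambled array, against 6.29 and 6.23 in untransfected cells. The treatment groups of PC3 did not overlap one another, and in DU145 all transfected arrays were below the untransfected arrays. IFIH1 rose in PC3 with miR-452 by 0.89 ± 0.09 (1.85-fold, adjusted p = 0.000186). Its change with miR-452 in DU145 was -0.15 ± 0.09 (adjusted p = 0.233), with a 95% interval of -0.35 to 0.06. With miR-224 it fell in DU145 by 0.31 ± 0.09 (adjusted p = 0.0419). That call ended when either untransfected or either miR-224 array of DU145 was left out (adjusted p 0.0841 to 0.253). In PC3 it changed with miR-224 by 0.17 ± 0.09 (adjusted p = 0.297), and the scrambled changes of -0.29 ± 0.09 in PC3 (adjusted p = 0.062) and -0.39 ± 0.11 in DU145 (adjusted p = 0.0507) were not called. The PC3 one was called without untransfected array c (adjusted p = 0.0383), and the DU145 one without either miR-452 array (adjusted p = 0.0217).

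DHX58, the LGP2 helicase (chr17:42101411-42112714), was not called in any comparison. Its level was low. Over all arrays of PC3 it reached at most 6.34, and over those of DU145 it ran from 6.01 to 6.38. The leukocyte marker CD14 had a median of 6.42 in both lines. At so low a level the absence of a call does not show that DHX58 did not respond. The change with miR-452 was 0.05 ± 0.08 in PC3, with a 95% interval of -0.13 to 0.23, and -0.01 ± 0.12 in DU145, with an interval of -0.27 to 0.25.

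TLR3, the endosomal sensor (chr4:186069156-186088073), rose in PC3 with miR-452. Its level was low, 6.07 and 6.32 with miR-452, 5.90 and 5.79 with miR-224 and 5.90 and 6.16 with the scrambled mimic, against 5.82 and 5.66 in untransfected PC3 cells. Its DU145 level was 5.80 and 6.03 with miR-452, 6.13 and 5.92 with miR-224 and 5.94 on the scrambled array, against 6.12 and 6.09 in untransfected cells. Both miR-452 arrays of PC3 were above the untransfected arrays but overlapped the scrambled arrays. The rise with miR-452 in PC3 was 0.46 ± 0.11 (1.37-fold, adjusted p = 0.0168). It was not called without either untransfected array or without miR-452 array c (adjusted p 0.0697 to 0.124), nor after quantile normalization within the line (0.33, adjusted p = 0.0638). In DU145 the change was -0.19 ± 0.11 (adjusted p = 0.199), and it was called without miR-452 array c (-0.31, adjusted p = 0.0415). The scrambled change in PC3 was 0.29 ± 0.11 (adjusted p = 0.101), and it was called without scrambled array b (0.42, adjusted p = 0.0445).

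EIF2AK2, the kinase PKR (chr2:37099210-37156980), fell in DU145 with every transfected RNA. Its level in DU145 was 8.38 and 8.76 with miR-452, 8.70 and 8.49 with miR-224 and 8.20 on the scrambled array, against 9.10 and 9.14 in untransfected cells. In PC3 it was 10.05 and 9.79 with miR-452, 9.84 and 9.66 with miR-224 and 9.55 and 9.46 with the scrambled mimic, against 9.81 and 9.68 in untransfected cells. All transfected DU145 arrays were below the untransfected DU145 arrays, while in PC3 both mimic groups overlapped the untransfected group. It fell in DU145 by 0.55 ± 0.13 with miR-452 (1.47-fold, adjusted p = 0.0154), by 0.52 ± 0.13 with miR-224 (1.44-fold, adjusted p = 0.0215) and by 0.92 ± 0.16 with the scrambled mimic (1.89-fold, adjusted p = 0.016). Each of these calls ended without either untransfected array, the miR-452 call also without miR-452 array a and the miR-224 call also without miR-224 array c (adjusted p 0.063 to 0.1395). After quantile normalization within the line the miR-452 change was -0.31 (adjusted p = 0.0797) and the miR-224 change -0.33 (adjusted p = 0.0683). In PC3 its change was 0.17 ± 0.10 with miR-452 (adjusted p = 0.229), 0.01 ± 0.10 with miR-224 (adjusted p = 0.982) and -0.24 ± 0.10 with the scrambled mimic (adjusted p = 0.126).

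MAVS, the mitochondrial adaptor of DDX58 and IFIH1 (chr20:3846834-3876118), was not called against untransfected cells in either line. Its level in PC3 was 9.87 and 9.69 with miR-452, 10.19 and 10.12 with miR-224 and 10.04 and 9.84 with the scrambled mimic, against 9.85 and 9.91 in untransfected cells. In DU145 it was 7.91 and 7.94 with miR-452, 8.12 and 8.17 with miR-224 and 7.85 on the scrambled array, against 8.07 and 8.01 in untransfected cells. The miR-224 arrays were the highest of each line. With miR-224 the change was 0.27 ± 0.09 in PC3 (adjusted p = 0.0969) and 0.11 ± 0.08 in DU145 (adjusted p = 0.349). After quantile normalization within the line these were called, at 0.32 in PC3 (adjusted p = 0.0443) and 0.30 in DU145 (adjusted p = 0.0346).

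IRF7, the transcription factor that amplifies interferon production (chr11:612555-615950), rose in PC3 with miR-452. Its level in PC3 was 8.43 and 8.35 with miR-452, 7.91 and 7.85 with miR-224 and 8.09 and 7.96 with the scrambled mimic, against 7.96 and 8.11 in untransfected cells. The PC3 miR-452 arrays were above all other PC3 arrays. The rise over untransfected cells was 0.36 ± 0.09 (1.28-fold, adjusted p = 0.0156), and it was not called without untransfected array b (adjusted p = 0.145) or miR-452 array b (adjusted p = 0.0827). Its DU145 level was 7.54 and 7.21 with miR-452, 7.15 and 7.45 with miR-224 and 7.42 on the scrambled array, against 7.17 and 7.24 in untransfected cells. Those groups overlapped for both mimics, and the miR-452 change was 0.17 ± 0.13 (adjusted p = 0.323).

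IRF3, the constitutive factor that MAVS and TLR3 signalling activates by phosphorylation (chr19:49659572-49665857), was not called in any comparison. After quantile normalization within the line its change with miR-224 in DU145 was called, at 0.25 (adjusted p = 0.0423), against 0.06 ± 0.09 without that step (adjusted p = 0.624). Its level ran from 8.56 to 8.76 in PC3 and from 7.85 to 8.07 in DU145. With miR-452 the change was -0.07 ± 0.08 in PC3, with a 95% interval of -0.24 to 0.10, and -0.09 ± 0.09 in DU145, with an interval of -0.28 to 0.10. Phosphorylation, by which IRF3 acts, is not measured by an expression array.

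ADAR, the adenosine deaminase of double-stranded RNA (chr1:154582057-154627997), fell in both lines with every transfected RNA. Its level in PC3 was 9.89 and 9.68 with miR-452, 9.65 and 9.60 with miR-224 and 9.64 and 9.43 with the scrambled mimic, against 10.09 and 10.06 in untransfected cells. In DU145 it was 9.56 and 9.73 with miR-452, 9.36 and 9.23 with miR-224 and 9.51 on the scrambled array, against 10.20 and 10.25 in untransfected cells. In each line every transfected array was below every untransfected array. In DU145 the fall was 0.58 ± 0.10 with miR-452 (1.49-fold, adjusted p = 0.00481), 0.93 ± 0.10 with miR-224 (1.90-fold, adjusted p = 0.000675) and 0.71 ± 0.12 with the scrambled mimic (1.64-fold, adjusted p = 0.0158). In PC3 it fell by 0.29 ± 0.10 with miR-452 (1.22-fold, adjusted p = 0.0498), by 0.45 ± 0.10 with miR-224 (1.37-fold, adjusted p = 0.013) and by 0.54 ± 0.10 with the scrambled mimic (1.46-fold, adjusted p = 0.00705). Those PC3 calls ended when some single arrays were left out, though ADAR was still lower in those fits. The change was then -0.30 to -0.19 with miR-452, -0.47 to -0.43 with miR-224 and -0.53 to -0.44 with the scrambled mimic. The share of all genes called also moved with the array left out. The miR-452 call ended without either untransfected array, either miR-224 array or miR-452 array c (adjusted p 0.06605 to 0.288), and after quantile normalization within the line (-0.18, adjusted p = 0.186). The miR-224 call ended without either untransfected array or miR-224 array b (adjusted p 0.0645 to 0.0978), and the scrambled call without untransfected array b (adjusted p = 0.101) or scrambled array c (adjusted p = 0.055). In DU145 the scrambled call ended without either untransfected array (adjusted p 0.08785 and 0.0938), and the calls with the mimics remained whichever array was left out.

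**Figure D2:**
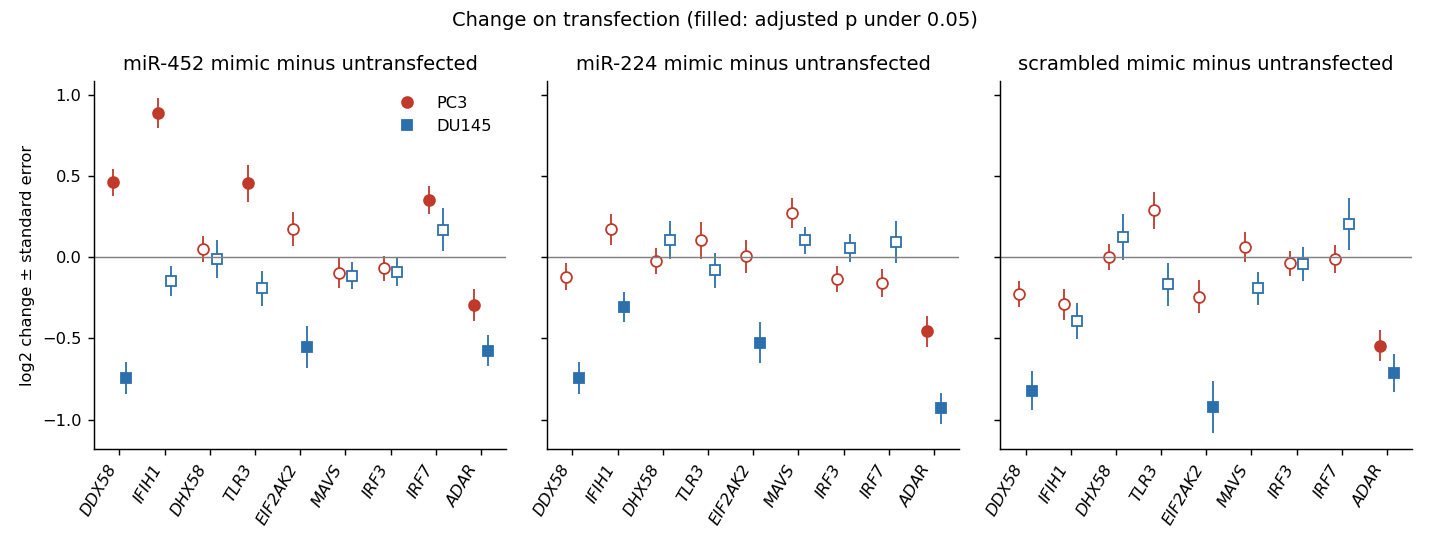
Log2 change against untransfected cells ± standard error (y axis) for the 9 genes (x axis), with PC3 as circles and DU145 as squares and filled symbols at a limma adjusted p under 0.05. With miR-452 DDX58 rose by 0.46 in PC3 and fell by 0.74 in DU145, while ADAR fell in both lines in all 3 panels.

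The difference between the lines was tested as the change in PC3 minus the change in DU145, in 1 limma fit of all 15 arrays. With miR-452 against untransfected cells it was called for DDX58, IFIH1 and EIF2AK2, 3 of 9 genes, beside 2.88% of all genes (2.2% higher in PC3, 0.68% lower). DDX58 changed by 1.21 ± 0.12 more in PC3 than in DU145 (95% interval 0.94 to 1.47, adjusted p = 8.69e-05), IFIH1 by 1.04 ± 0.13 (0.75 to 1.32, adjusted p = 0.0007) and EIF2AK2 by 0.73 ± 0.18 (0.35 to 1.10, adjusted p = 0.0382). The DDX58 and IFIH1 calls remained whichever array was left out. The EIF2AK2 call ended without either untransfected array of either line, miR-452 array b of PC3 or miR-452 array a of DU145 (adjusted p 0.075 to 0.169), and after quantile normalization within the line (0.62, adjusted p = 0.0501). For TLR3 the difference was 0.65 ± 0.17 (adjusted p = 0.0542), and it was called without either PC3 scrambled array (adjusted p = 0.0421) or DU145 miR-452 array c (adjusted p = 0.0206). For ADAR, which fell in both lines, it was 0.28 ± 0.14 with an interval of -0.01 to 0.58 (adjusted p = 0.384). For DHX58, MAVS, IRF3 and IRF7 it ran from 0.02 to 0.18, with intervals that reached from -0.25 at the lowest to 0.53 at the highest.

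With miR-224 against untransfected cells the difference was called for DDX58 and IFIH1, 2 of 9 genes, beside 5.13% of all genes (4.33% higher in PC3, 0.794% lower). It was 0.63 ± 0.12 for DDX58 (0.36 to 0.89, adjusted p = 0.012) and 0.48 ± 0.13 for IFIH1 (0.20 to 0.77, adjusted p = 0.0497). The DDX58 call ended without untransfected array c or miR-224 array b of PC3, or without untransfected array b or miR-224 array c of DU145 (adjusted p 0.0535 to 0.0766). The IFIH1 call remained only without untransfected array b of PC3, either miR-452 array of either line or the DU145 scrambled array (otherwise adjusted p 0.0595 to 0.238). The differences of EIF2AK2, 0.53 ± 0.18 (adjusted p = 0.0932), and ADAR, 0.47 ± 0.14 (adjusted p = 0.0602), were called when either DU145 miR-452 array was left out (adjusted p = 0.038 for EIF2AK2 and 0.0375 for ADAR). With the scrambled mimic no member was called, beside 0.207% of all genes (0.158% higher in PC3, 0.049% lower), and 3 of 9 had an unadjusted p under 0.05. The scrambled differences were 0.60 ± 0.14 for DDX58 (0.30 to 0.89, adjusted p = 0.11), 0.68 ± 0.20 for EIF2AK2 (0.26 to 1.10, adjusted p = 0.216) and 0.46 ± 0.19 for TLR3 (0.06 to 0.86, adjusted p = 0.456). The scrambled difference for DDX58 was called when either DU145 miR-452 array was left out (adjusted p = 0.0416). For IFIH1 the scrambled difference was 0.10 ± 0.15, with an interval of -0.21 to 0.42. The comparisons of the 3 transfected RNAs share the untransfected arrays of each line.

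**Figure D3:**
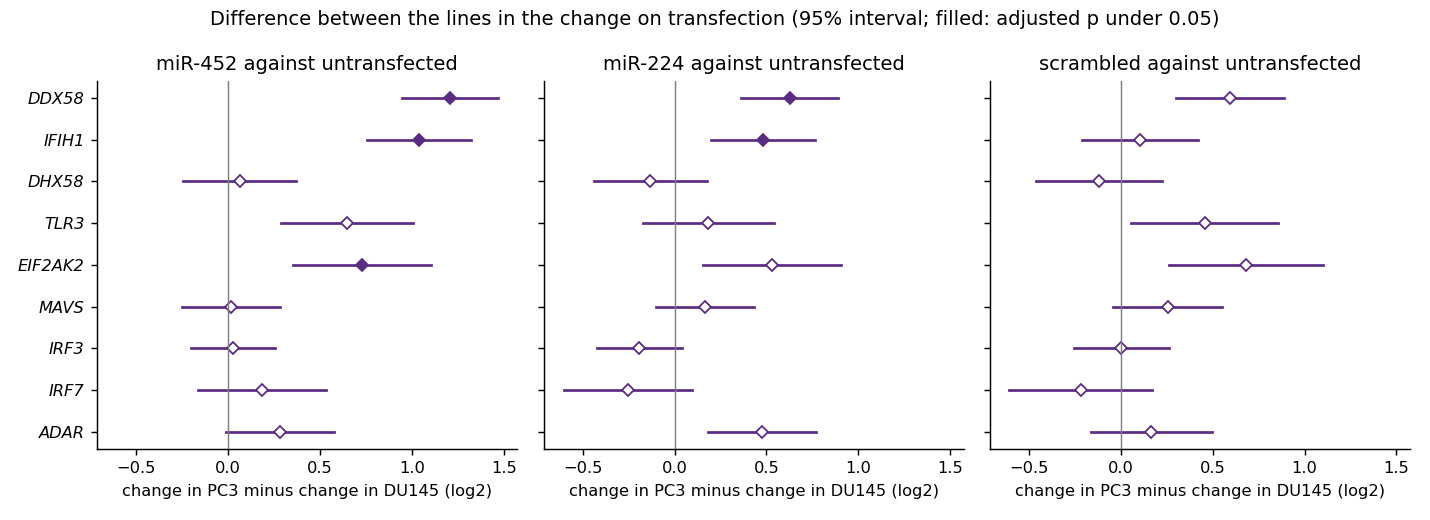
Change in PC3 minus change in DU145 (x axis, log2) with its 95% interval for the 9 genes (y axis), filled at a limma adjusted p under 0.05. DDX58 lay at 1.21 with miR-452, 0.63 with miR-224 and 0.60 with the scrambled mimic, and the interval of IRF3 crossed 0 in all 3 panels.

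Against the scrambled mimic, which is also a transfected duplex, miR-452 raised 4 of 9 sensor genes in PC3, beside 5.22% of all genes (2.89% higher, 2.33% lower). IFIH1 rose by 1.18 ± 0.09 (2.27-fold, adjusted p = 6.46e-05), DDX58 by 0.69 ± 0.08 (1.61-fold, adjusted p = 0.000538), EIF2AK2 by 0.42 ± 0.10 (1.33-fold, adjusted p = 0.0396) and IRF7 by 0.37 ± 0.09 (1.29-fold, adjusted p = 0.0318). The IFIH1 and DDX58 calls remained whichever array was left out. The EIF2AK2 call ended without either untransfected array, either scrambled array or miR-452 array b (adjusted p 0.062 to 0.264), and the IRF7 call without scrambled array c or either miR-452 array (adjusted p 0.0944 to 0.179). For TLR3 the change was 0.17 ± 0.11 (adjusted p = 0.526), and for ADAR 0.25 ± 0.10 (adjusted p = 0.188). In DU145, 0 of 9 were called with miR-452 against the scrambled array by limma, beside 2.1% of all genes (0.577% higher, 1.52% lower), and 1 of 9 had an unadjusted p under 0.05. That gene was EIF2AK2, at 0.37 ± 0.16 (adjusted p = 0.296), called without miR-452 array a (0.56, adjusted p = 0.048). DDX58 differed there by 0.08 ± 0.12, with an interval of -0.19 to 0.34, and IFIH1 by 0.25 ± 0.11, with an interval of -0.01 to 0.50. The difference between lines in this contrast was called for IFIH1 alone, at 0.94 ± 0.15 (0.62 to 1.25, adjusted p = 0.0122), 1 of 9 beside 0.62% of all genes (0.473% higher in PC3, 0.147% lower). It was not called without scrambled array c of PC3 (adjusted p = 0.051). For DDX58 it was 0.61 ± 0.14 (0.32 to 0.91, adjusted p = 0.0652), and it was called without miR-452 array c of DU145 (adjusted p = 0.02).

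With miR-224 against the scrambled mimic, IFIH1 rose in PC3 by 0.46 ± 0.09 (1.38-fold, adjusted p = 0.00643), the only call among the 9 genes, beside 16.8% of all genes (12.1% higher, 4.65% lower). In DU145 none of the 9 was called, beside 1.94% of all genes (0.631% higher, 1.31% lower), and 2 of 9 had an unadjusted p under 0.05, EIF2AK2 at 0.40 ± 0.16 (adjusted p = 0.299) and MAVS at 0.30 ± 0.10 (adjusted p = 0.22). The difference between lines was called for 0 of 9, beside 1.15% of all genes (0.909% higher in PC3, 0.245% lower), with 1 of 9 at an unadjusted p under 0.05. That gene was IFIH1, at 0.38 ± 0.15 with an interval of 0.06 to 0.70 (adjusted p = 0.275).

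Between the mimics, miR-452 against miR-224, 3 of 9 genes were higher and 1 lower in PC3, beside 18.5% of all genes (5.99% higher, 12.5% lower). IFIH1 was higher with miR-452 by 0.72 ± 0.09 (1.64-fold, adjusted p = 0.000396), DDX58 by 0.58 ± 0.08 (1.5-fold, adjusted p = 0.000582) and IRF7 by 0.51 ± 0.09 (1.43-fold, adjusted p = 0.00173). MAVS was lower with miR-452 by 0.37 ± 0.09 (1.29-fold, adjusted p = 0.0175), a call that ended without either miR-224 array or miR-452 array c (adjusted p 0.0647 to 0.158). TLR3 differed by 0.35 ± 0.11 (adjusted p = 0.0511), and was called without either scrambled array (adjusted p = 0.0313) or miR-452 array b (adjusted p = 0.0296). In DU145 none was called, beside 5.91% of all genes (2.38% higher, 3.53% lower), with 2 of 9 at an unadjusted p under 0.05. These were ADAR, at 0.35 ± 0.10 (adjusted p = 0.063), and MAVS, at -0.22 ± 0.08 (adjusted p = 0.184). The ADAR value was called without miR-452 array a (adjusted p = 0.0322). The difference between lines was called for DDX58, at 0.58 ± 0.12 (0.32 to 0.84, adjusted p = 0.0144), and IFIH1, at 0.56 ± 0.13 (0.27 to 0.84, adjusted p = 0.0251), 2 of 9 beside 5.71% of all genes (2.31% higher in PC3, 3.41% lower). IRF7 differed by 0.44 ± 0.16 (adjusted p = 0.14), and was called without miR-452 array a of DU145 (adjusted p = 0.0304). The DDX58 call ended without miR-224 array b or miR-452 array b of PC3 or miR-224 array c of DU145 (adjusted p 0.0519 to 0.0663). The IFIH1 call ended without either miR-224 array or miR-452 array c of PC3, or without miR-224 array c or miR-452 array c of DU145 (adjusted p 0.0568 to 0.122).

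The order of the group means within a line differed between genes. For IFIH1 in PC3 it was miR-452, miR-224, untransfected and scrambled, at 7.62 ± 0.15, 6.90 ± 0.01, 6.73 ± 0.14 and 6.44 ± 0.02 (SD, n = 2 each). By limma no difference was called between the neighbours miR-224 and untransfected, nor between untransfected and scrambled. For DDX58 in PC3 it was miR-452, untransfected, miR-224 and scrambled, and no difference among the last 3 was called by the same test. For ADAR in both lines the untransfected mean was the highest. It was followed in PC3 by miR-452, miR-224 and scrambled, among which no difference was called.

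Genes that act beside the 9 sensors were counted from 11 lists with 168 of 182 entries measured. The other binders of foreign or double-stranded RNA, such as the OAS enzymes that make the messenger activating RNase L and the IFIT proteins that bind viral RNA ends, had 18 of 20 members measured. With miR-452, 7 rose and 1 fell in PC3 (median 0.26, all genes 0.01) and 0 rose and 7 fell in DU145 (median -0.25, all genes -0.02). Over all genes, 8.12% rose and 14.1% fell in PC3, and 8.31% rose and 19.9% fell in DU145. OAS1 rose in PC3 by 1.69 ± 0.11 (adjusted p = 1.47e-05), OAS2 by 1.46 ± 0.11 (adjusted p = 2.37e-05), IFIT1 by 0.92 ± 0.09 (adjusted p = 0.000108) and IFIT3 by 0.68 ± 0.08 (adjusted p = 0.000254). In DU145 IFIT1 fell by 0.91 ± 0.10 (adjusted p = 0.00141), IFIT2 by 0.64 ± 0.09 (adjusted p = 0.00262), IFIT3 by 0.68 ± 0.10 (adjusted p = 0.00262) and DDX60 by 0.53 ± 0.09 (adjusted p = 0.00573). IFIT1 was at 8.63 and 8.50 with miR-452 against 7.70 and 7.60 in untransfected PC3 cells, and at 6.95 and 7.13 against 7.90 and 8.0 in untransfected DU145 cells. The difference between lines was called for 9 of the 18, all larger in PC3, beside 2.88% of all genes, with IFIT1 at 1.82 ± 0.13 (adjusted p = 1.08e-05). With miR-224, 0 rose and 5 fell in PC3, where 6.85% of all genes fell, and 0 rose and 11 fell in DU145, where 15.5% fell. With the scrambled mimic, 0 rose and 4 fell in PC3, where 10.9% of all genes fell, and 0 rose and 7 fell in DU145, where 9.22% fell. Leaving out 1 array gave 5 (without miR-452 array c) to 10 (without untransfected array c) calls with miR-452 in PC3, and 3 (without untransfected array b) to 15 (without miR-452 array c) in DU145. Without untransfected array b of the line the calls with miR-224 were 2 in PC3 and 5 in DU145, and those with the scrambled mimic 0 in each line. The scrambled calls were more in PC3 without untransfected array c and in DU145 without miR-452 array a. The share of all genes called also moved with the array left out.

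For genes that link the sensors to interferon, the counts stand beside 14.1% of all genes lower with miR-452 in PC3 and 19.9% lower in DU145. Of 17 measured adaptors and kinases, 0 rose and 3 fell with miR-452 in PC3 (median -0.15), and 1 rose and 5 fell in DU145 (median -0.22). CHUK, the kinase IKK alpha of the NF-kB pathway, fell in both lines, by 1.04 ± 0.09 in PC3 (adjusted p = 9.07e-05) and 0.87 ± 0.09 in DU145 (adjusted p = 0.00126). TRAF5, a TRAF-family adaptor, fell by 0.48 ± 0.09 in PC3 (adjusted p = 0.00489) and 0.62 ± 0.09 in DU145 (adjusted p = 0.00327). TRAF5 was about as low with the scrambled mimic. In PC3 it lay at 6.08 and 6.14 with miR-452 and 6.09 and 6.16 with the scrambled mimic, against 6.70 and 6.47 in untransfected cells. In DU145 it lay at 6.06 and 6.125 with miR-452 and 6.13 on the scrambled array, against 6.68 and 6.75. Of 21 regulators of RIG-I and MAVS, mostly ubiquitin ligases and deubiquitinases, 0 rose and 2 fell in PC3 and 0 rose and 8 fell in DU145. RNF135, the ubiquitin ligase Riplet that activates RIG-I, fell in DU145 by 0.46 ± 0.09 (adjusted p = 0.00954), and SMURF1 by 0.54 ± 0.11 (adjusted p = 0.00882). Without untransfected array b of the line, 0 of the regulators were called in either line, and 1 adaptor or kinase was called in PC3 and 2 in DU145. Without miR-452 array c of DU145 the adaptors and kinases called there were 10. Over all genes, too, the share called with miR-452 fell in PC3 without untransfected array b and rose in DU145 without miR-452 array c. The difference between lines was called for none of either list with miR-452 by limma, with 1 and 6 genes at an unadjusted p under 0.05.

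Interferon genes showed no rise of IFNB1, the type I interferon that MAVS signalling induces in most cell types, but its level was near the lowest on the arrays. Its level was 5.16 and 5.13 with miR-452, against 5.11 and 5.16 in untransfected PC3 cells, and 5.07 and 4.88, against 4.95 and 4.81 in untransfected DU145 cells. Those groups overlapped in both lines. The lowest value in the data was 4.49, so levels this low cannot show whether IFNB1 was weakly induced. Of 12 measured interferon genes, 2 rose and 1 fell with miR-452 in each line, beside 22.2% of all genes in PC3 and 28.2% in DU145 called in either direction. IFNL1, a type III interferon, rose in PC3 by 0.35 ± 0.10 (adjusted p = 0.0308). IFNL2 rose by 0.38 ± 0.12 in PC3 (adjusted p = 0.0457) and by 0.43 ± 0.13 in DU145 (adjusted p = 0.04), and IFNL3 rose in DU145 by 0.34 ± 0.11 (adjusted p = 0.0477). IFNL2 and IFNL3 are near-identical copies, so which of them moved is uncertain. IFNE, an epithelial type I interferon, fell by 0.73 ± 0.12 in PC3 (adjusted p = 0.00205) and by 0.33 ± 0.08 in DU145 (adjusted p = 0.0214). In DU145 IFNE lay at 4.96 and 4.90 with miR-452, against 5.22 and 5.29 in untransfected cells. These levels are about as low as those of IFNB1, so the DU145 fall is uncertain. With miR-452 against the scrambled mimic, 0 of the 12 were called in PC3 by limma, beside 5.22% of all genes. IFNL2 was also higher in DU145 with the other transfected RNAs. It lay at 7.24 and 7.16 with miR-224 and 7.37 on the scrambled array, against 6.60 and 6.83 in untransfected cells. With miR-452 it was 7.35 and 6.95. IFNL1 in PC3 lay at 6.99 and 6.91 with the scrambled mimic, against 6.53 and 6.75 in untransfected cells. Without untransfected array b the calls of this list were 1 in PC3 and 0 in DU145. Of 17 interferon receptor and JAK-STAT genes, 0 rose and 4 fell in PC3 and 0 rose and 7 fell in DU145, beside 14.1% of all genes lower in PC3 and 19.9% in DU145. IFNAR2, a subunit of the type I receptor, fell by 0.89 ± 0.09 in PC3 (adjusted p = 0.000166) and 1.00 ± 0.15 in DU145 (adjusted p = 0.00327), and IFNGR1, of the type II receptor, by 0.65 ± 0.11 in PC3 (adjusted p = 0.00312) and 0.70 ± 0.10 in DU145 (adjusted p = 0.00278). IFNGR1 was also called lower with miR-224 in both lines by limma. Without untransfected array b of the line, fewer of the receptor and JAK-STAT genes were called with miR-452 in each line. In PC3 the share of all genes called fell without that array too.

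Targets of interferon signalling rose with miR-452 in PC3 more than in DU145. Of 28 effectors, 18 rose and 0 fell with miR-452 in PC3 (median 0.37), while 1 rose and 7 fell in DU145 (median -0.02). This stands beside 22.2% of all genes in PC3 and 28.2% in DU145, so the DU145 count is near that of all genes. IFI44L rose in PC3 by 1.85 ± 0.10 (adjusted p = 9.06e-06), MX1, a GTPase that blocks virus replication, by 1.82 ± 0.14 (adjusted p = 2.38e-05) and SAMD9 by 1.42 ± 0.10 (adjusted p = 2.08e-05). MX1 was at 9.44 and 8.90 with miR-452, 7.41 and 7.51 with miR-224 and 7.13 and 7.18 with the scrambled mimic, against 7.37 and 7.32 in untransfected PC3 cells. The miR-452 arrays were above all other PC3 arrays. HERC5, the ligase for the ubiquitin-like ISG15, fell in DU145 by 0.81 ± 0.10 (adjusted p = 0.00191). HERC5 was low there with the other transfected RNAs too, at 6.335 and 6.337 with miR-224 and 6.26 on the scrambled array. Untransfected DU145 cells had 7.01 and 6.85. IRF9, the DNA-binding part of the complex that carries the interferon signal, rose in PC3 by 0.96 ± 0.12 (adjusted p = 0.000395), the only call among 6 other interferon regulatory factors, and none was called in DU145, where 2 of 6 had an unadjusted p under 0.05. The difference between lines was called for IRF9, at 1.04 ± 0.15 (adjusted p = 0.00209), and for 17 of the 28 effectors, all larger in PC3, beside 2.88% of all genes. Without miR-452 array b the PC3 count of effectors was 11, and in DU145 the count ran from 3 (without untransfected array b) to 13 (without miR-452 array c).

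**Figure D4:**
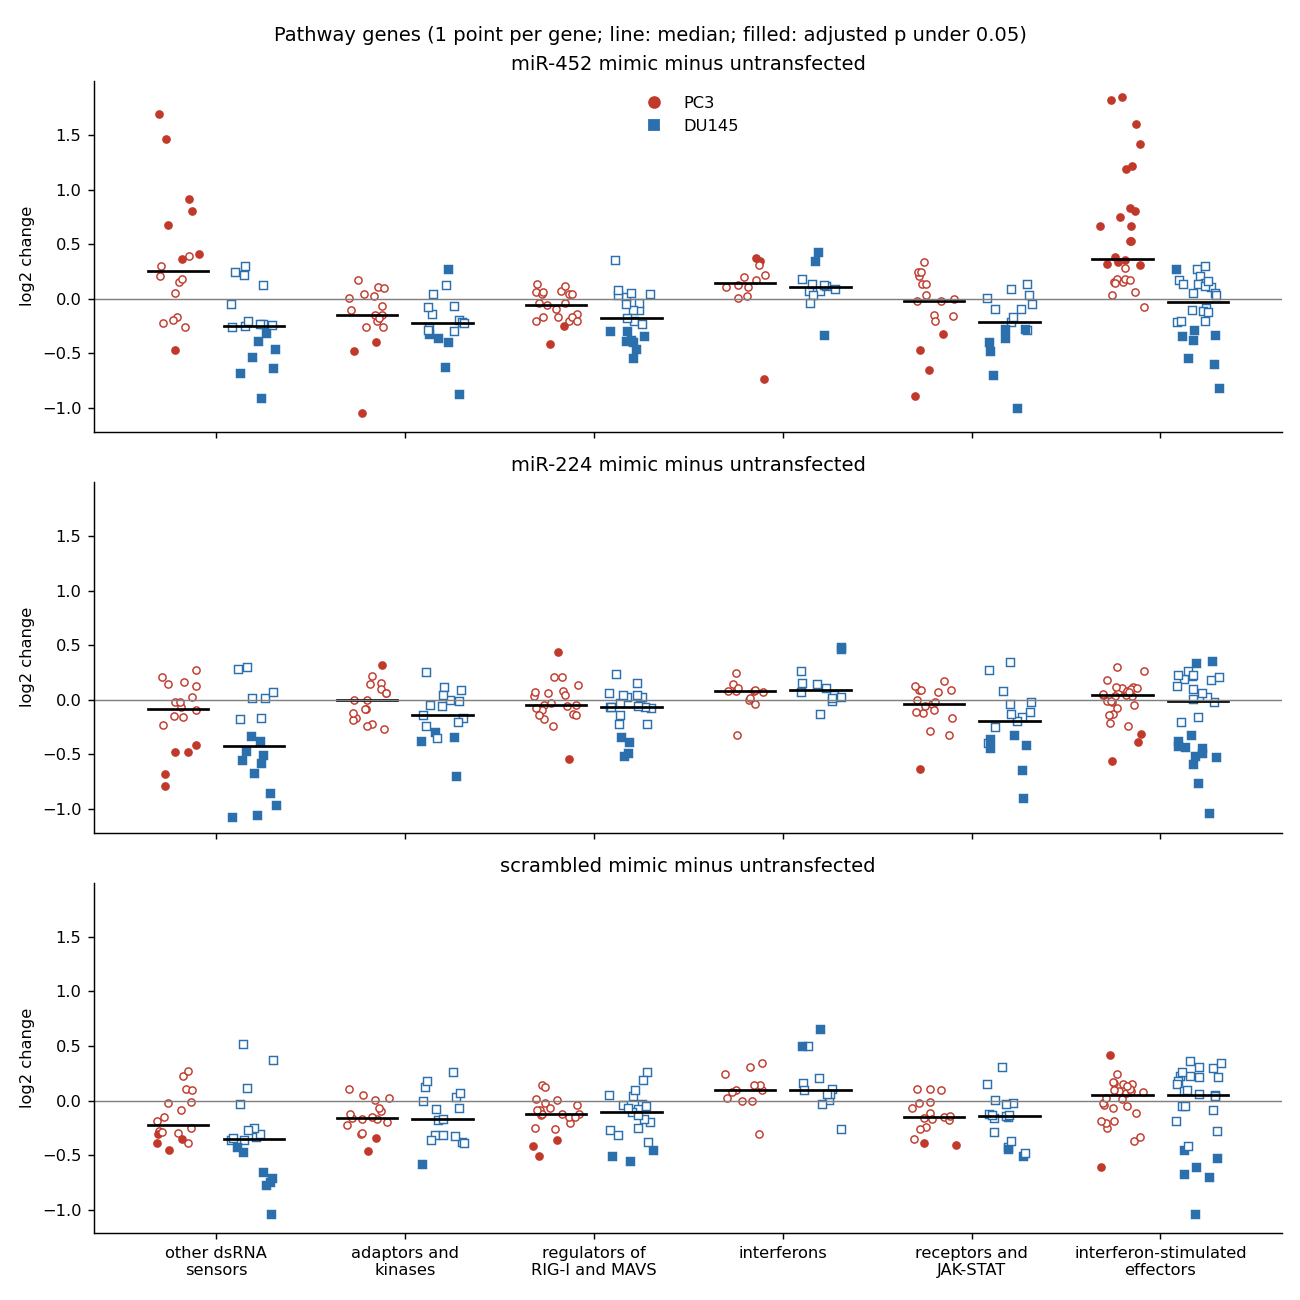
Log2 change against untransfected cells (y axis), 1 point per gene, for 6 lists (x axis) in PC3 (circles) and DU145 (squares), with a line at the median and filled symbols at a limma adjusted p under 0.05. With miR-452 the medians of other sensors were 0.26 in PC3 and -0.25 in DU145, and those of effectors 0.37 in PC3 and -0.02 in DU145.

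Genes whose pattern was most like that of a member were taken by Pearson r over the 15 arrays after the mean of each line was subtracted. The arrays share treatments and normalization within a line, and the values describe these arrays alone. DDX58 was most like IFIT1 (r = 0.957), IFIT3 (r = 0.944) and SP100 (r = 0.934). IFIH1 was most like RAI14 (r = 0.947), MX1 (r = 0.909) and RBM44 (r = 0.903). ADAR was most like ABI1 (r = 0.979), DDX42 (r = 0.969) and RBM22 (r = 0.969), and EIF2AK2 most like MARCHF7 (r = 0.920), MAGI3 (r = 0.911) and C2orf49 (r = 0.911). MAVS was most like HIPK2 (r = 0.956), PRRC2B (r = 0.928) and ABTB2 (r = 0.916), IRF7 most like CYP4Z1 (r = 0.921), PKP1 (r = 0.887) and PRSS8 (r = 0.881), and TLR3 most like RBPMS2 (r = 0.846), OR52N4 (r = 0.829) and PLOD2 (r = 0.826). Among the 9 themselves, DDX58 was most like EIF2AK2 (r = 0.863), followed by IFIH1 (r = 0.741) and ADAR (r = 0.728), while for IFIH1 and ADAR r was 0.284.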

How the data were processed

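Per the series design text and the labels, the deposited log2 values were made by the authors with the RMA16 option of GeneSpring GX 11.0, each line normalized separately, from 100 ng total RNA per array. RMA16 is understood to add 16 before the logarithm, which the sources used here do not state. If so, changes of weakly expressed genes are understated. Of 28869 features, the 19310 with 1 symbol were averaged into 18377 genes, with symbols updated through Entrez numbers, and no filter.

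Comparisons used limma 3.58.1 in R 4.3.3, with 1 fit of 4 group means per line and 1 fit of all 15 arrays for differences between lines. Residual degrees of freedom were 4 for PC3, 3 for DU145 and 7 for all arrays. Tests were two-sided with Benjamini-Hochberg adjustment over all genes, called under 0.05. The single DU145 scrambled array is assumed to vary like the other DU145 groups. The fits were tested on simulated data.

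The 9 members, the lists and the tests were chosen with earlier results of these data known. Named from each list were up to 4 called genes with the smallest p in a comparison described, the smallest p where none was called, and 3 genes of like pattern per called member. IFNB1 was named besides these after its values were seen, as were the examples whose arrays are given. Whether the array letters in the titles pair samples is not stated, and the main fits did not pair them. Same-letter deviations from the group mean correlated at -0.147 to 0.273 in PC3 and -0.31 to 0.0508 in DU145. With so few arrays per group these correlations cannot decide whether the letters pair samples. Alternatives were features without averaging, a filter at percentile 20, quantile normalization, trend and robust moderation, 16 removed (floor 8), a replicate block, both lines in 1 fit and each array left out.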

Additional observations from a re-analysis of the deposited data

Results flagged for a closer look

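A difference between the lines was called for some of the 9 genes with the miR-452 and miR-224 mimics, by the limma contrast of PC3 minus DU145. With the scrambled mimic against untransfected cells no member was called, beside 0.207% of all genes, from 1 DU145 scrambled array. The estimates there were 0.60 ± 0.14 for DDX58 and 0.68 ± 0.20 for EIF2AK2, near 0.63 for DDX58 with miR-224 and 0.73 for EIF2AK2 with miR-452. With miR-452 that of DDX58 was larger, at 1.21. For IFIH1 the scrambled estimate was 0.10 ± 0.15 (95% interval -0.21 to 0.42), against 1.04 with miR-452 and 0.48 with miR-224. A difference limited to the microRNA mimics is therefore not shown for DDX58 with miR-224 or EIF2AK2 with miR-452. With miR-452 against untransfected cells the difference was 1.21 for DDX58, 1.04 for IFIH1 and 0.73 for EIF2AK2 on the log2 scale, 3 of 9 beside 2.88% of all genes. The EIF2AK2 call ended without any 1 of 6 arrays. With miR-452 DDX58 rose in PC3 and fell in DU145, and both changes were called. With miR-224 against untransfected cells the difference was 0.63 for DDX58 and 0.48 for IFIH1, 2 of 9 beside 5.13% of all genes. Those calls ended without any 1 of 4 arrays for DDX58 and of 9 for IFIH1. With miR-452 against the scrambled mimic it was 0.94 for IFIH1, which rests on 1 DU145 scrambled array and stands beside 0.62% of all genes. With miR-452 against miR-224 it was 0.58 for DDX58 and 0.56 for IFIH1, beside 5.71% of all genes. No group had enough arrays for a single array to be set against the others.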

How the results depend on the processing

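Among the 9 genes 34 calls were made over 18 comparisons. No called value changed sign under any alternative. Over the alternatives other than leaving out an array, 248 of 297 values of these calls kept the call and 49 lost it, and 17 of the 34 kept it in all. Leaving out 1 array at a time, 436 of 506 kept it and 70 lost it, and 14 of the 34 kept it in all. The cause of these changes was not tested. For these alternatives and the replicate block, only the larger shifts in the number of genes called are listed, and single calls changed in other comparisons too. With quantile normalization in DU145 against untransfected cells, EIF2AK2 lost its call with miR-224 and miR-452. There MAVS and IRF3 gained a call with miR-224, and IFIH1 with the scrambled mimic. With all features tested without averaging, 1 gene was called for the line difference of miR-224 against untransfected cells. With the percentile filter, 2 genes were called in PC3 for the scrambled mimic against untransfected cells. With quantile normalization, 2 were called in PC3 with miR-224 against untransfected cells, 3 in PC3 with miR-452 against untransfected cells, and 1 in DU145 with miR-452 against miR-224. That last comparison also gave 1 with trend and robust moderation and 1 with both lines in 1 fit. With 16 removed before the logarithm, 2 were called in PC3 for miR-452 against scrambled and 1 for the line difference of miR-452 against miR-224. Both lines in 1 fit gave 2 in PC3 for miR-452 against scrambled.

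Whether arrays with the same letter belong together is not stated, so the replicate block is given here, apart from the other alternatives. With the replicate block, 0 genes were called in PC3 for miR-224 against scrambled, 2 in DU145 for miR-224 against untransfected and 1 in DU145 for miR-452 against untransfected. For the line differences it gave 1 for miR-452 against untransfected, and 0 each for miR-224 against untransfected, miR-452 against scrambled and miR-452 against miR-224. The share of all genes called fell with the block too. For miR-452 against untransfected it was 0.158%, from 2.88% without the block. For miR-224 against untransfected it was 0.00544%, from 5.13%, and for miR-452 against miR-224 0.626%, from 5.71%. Of the line differences with miR-452 against untransfected cells, alternatives other than leaving out an array lowered the other sensors called to as few as 4, and the effectors to as few as 5. Crossed letters were added after seeing the data. With those of the DU145 miR-452 arrays crossed, the replicate block gave 0 in PC3 for miR-224 against scrambled, 1 in DU145 for miR-452 against miR-224, and line differences of 0 for miR-224 against untransfected, 0 for miR-452 against scrambled and 1 for miR-452 against miR-224. With those of the PC3 untransfected arrays crossed, it gave 2 in PC3 for scrambled against untransfected, 2 and 1 in DU145 for miR-224 and miR-452 against untransfected, and 0 for line differences of miR-224 against untransfected, miR-452 against scrambled and miR-452 against miR-224. In DU145 the share of all genes called was then 2.52% for miR-224 and 2.42% for miR-452 against untransfected, from 21% and 28.2% without a block.

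Leaving out 1 array, the number of genes called ran in PC3 from 2 to 5 for miR-452, 0 to 1 for miR-224 and 0 to 2 for scrambled against untransfected, 2 to 4 for miR-452 and 1 to 1 for miR-224 against scrambled, and 3 to 5 for miR-452 against miR-224. In DU145 it ran from 2 to 4 for miR-452, 2 to 4 for miR-224 and 0 to 4 for scrambled against untransfected, 0 to 1 for miR-452 and 0 to 0 for miR-224 against scrambled, and 0 to 1 for miR-452 against miR-224. For the line differences it ran from 2 to 4, 0 to 4 and 0 to 1 for miR-452, miR-224 and scrambled against untransfected, 0 to 2 and 0 to 0 for miR-452 and miR-224 against scrambled, and 0 to 3 for miR-452 against miR-224. The share of all genes called moved too, most for DU145 scrambled against untransfected, 0% without untransfected array b and 30.7% without miR-452 array c, and for DU145 miR-452 against untransfected, 52.5% without that array. Standard errors of the 9 genes ran from 0.08 to 0.11 in PC3 and from 0.08 to 0.16 in DU145, which limits what could be called.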

Other observations

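The counts that follow, all with miR-452 against untransfected cells, stand beside 22.2% of all genes in PC3 and 28.2% in DU145, called in either direction. DICER1, which cuts double-stranded RNA into small RNAs, rose by 0.75 ± 0.10 in PC3 (limma adjusted p = 0.000608) and by 0.63 ± 0.09 in DU145 (adjusted p = 0.00296). DUS2, a tRNA dihydrouridine synthase with a double-stranded RNA binding domain, fell by 0.88 ± 0.08 in PC3 (adjusted p = 0.000108) and by 0.46 ± 0.09 in DU145 (adjusted p = 0.00798). DICER1 was also called higher with miR-224 against untransfected cells in both lines, and DUS2 lower with the scrambled mimic in PC3. Of the 15 measured genes of double-stranded RNA binding and editing, 1 rose and 4 fell in each line, with CDKN2AIP called in PC3 and STAU2 in DU145 where the other line had no call. For none of them was a difference between lines called, with 2 at an unadjusted p under 0.05. Of the 15 measured genes around the substrate of EIF2AK2 and the stress response, 0 rose and 2 fell in PC3 and 1 rose and 4 fell in DU145. ATF4, the transcription factor translated when eIF2 alpha is phosphorylated, fell by 0.55 ± 0.09 in PC3 (adjusted p = 0.00296) and by 0.41 ± 0.10 in DU145 (adjusted p = 0.0213).

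Of 8 measured endosomal and DNA sensor genes, 2 rose and 1 fell in PC3, and 0 rose and 1 fell in DU145. IFI16, a nuclear DNA sensor, rose in PC3 with miR-452 by 0.83 ± 0.08 (adjusted p = 0.000136), and the difference between lines was 0.84 ± 0.13 (adjusted p = 0.0023). TLR9, an endosomal DNA sensor, rose in PC3 by 0.32 ± 0.08 (adjusted p = 0.0195). STING1, the adaptor of the cytosolic DNA sensor, fell in PC3 by 0.41 ± 0.08 (adjusted p = 0.00715), and CGAS, that sensor, fell in DU145 by 0.41 ± 0.09 (adjusted p = 0.015). Of 11 NF-kB outputs, 4 rose and 1 fell in PC3, TNFAIP3 rising by 0.51 ± 0.11 (adjusted p = 0.00979) and NFKBIZ falling by 0.79 ± 0.07 (adjusted p = 0.000108), while 1 rose and 2 fell in DU145. By limma, TLR9 and IFI16 were also called higher and STING1 and NFKBIZ lower in PC3 with the scrambled mimic against untransfected cells, beside 14.2% of all genes. Against the scrambled mimic, miR-452 raised IFI16 and TNFAIP3 in PC3, while TLR9, STING1 and NFKBIZ were not called. CGAS in DU145 lay at 7.67 and 7.88 with miR-452 and 7.48 on the scrambled array, against 8.165 and 8.20. As over all genes in PC3, the list counts with miR-452 against untransfected cells were lower without untransfected array b of each line. Without it the calls were 2 and 2 for binding and editing, 1 and 0 for the stress response, 1 and 0 for the DNA sensors and 1 and 0 for the NF-kB outputs, in PC3 and in DU145.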
